A study of Homo sapiens with 12 samples.

Results

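The protein part of the cytosolic ribosome is encoded by a family of genes whose mRNAs are among the most abundant in a dividing cell. Its members were taken by symbol: RPSA, RPLP0, RPLP1, RPLP2, and RPL or RPS followed by a number and optionally by A, X, L or L1, with at least 100 counts over all libraries and no pseudogenes. This rule gave 82 genes of 60710 in the table, 32 for the small subunit and 50 for the large subunit. Of 84 matching symbols, the testis-type copy RPL10L had no count and the muscle-type copy RPL3L had 35 counts, so both were left out.

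RNA was measured in SH-SY5Y, a human neuroblastoma line, in 12 libraries that form 4 groups of 3. Control wells received 10 µL of DMSO, and the other wells received the same volume of DMSO with HPPE, zinc protoporphyrin or tin protoporphyrin at a final 5 µM in 2 mL of medium for 5 h. All groups therefore share the DMSO vehicle and the serum-containing medium. Zinc and tin protoporphyrin share one porphyrin ring and differ in the metal it holds. The labels do not spell out HPPE, and its structure is not described here. They also do not say whether the 3 libraries of a group came from separate cultures, so the p-values measure the spread between these libraries, which may be technical.

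Each ribosome is built from a small subunit, which reads the mRNA, and a large subunit, which joins amino acids. Their proteins are needed in roughly equal numbers, and most of the mRNAs begin with a run of C and T at the cap, the 5′ terminal oligopyrimidine (TOP) motif, through which mTORC1 and the RNA-binding protein LARP1 adjust their translation and stability. A few genes have close copies (names in L or L1), and several members act outside the ribosome, such as RPL5 and RPL11, which bind the p53 regulator MDM2.

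A match to the start of such a motif was searched in RefSeq promoter entries (GRCh38.p14), which held 66 of the 82 members. Where a gene had several annotated starts, a match at any of them was enough, and the start with the longest run was kept. The search asked for C at the annotated start followed by C or T only, at least 5 letters in all, on the gene's own strand. This was present in 47 of the 66 members (71.21%), in 1404 of 27305 genes with an entry (5.14%) and in 6 of 69 mitochondrial ribosomal protein genes (8.7%). The matching runs had a median of 8 letters. Small and large subunit genes held it alike, with 72.0% and 70.73%. Among the 4 close copies with an entry, RPL22L1 alone had it. The sequences below show the 15 bases before the annotated start and the 15 from it, with the C and T run in capitals; they are genes on which the results turn, first those with the run and then those without.
RPLP1: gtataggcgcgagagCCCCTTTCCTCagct
RPLP2: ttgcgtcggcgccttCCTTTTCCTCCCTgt
RPSA: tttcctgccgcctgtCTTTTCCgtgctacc
RPS6: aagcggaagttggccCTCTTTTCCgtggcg
RPL10: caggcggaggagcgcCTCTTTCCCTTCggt
RPL26: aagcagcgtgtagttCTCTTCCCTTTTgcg
RPL22: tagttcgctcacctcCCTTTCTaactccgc
RPL22L1: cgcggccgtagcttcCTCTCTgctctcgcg
RPS26: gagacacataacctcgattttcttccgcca
RPL9: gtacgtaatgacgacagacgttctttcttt
RPL26L1: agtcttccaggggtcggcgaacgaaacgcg
RPS27L: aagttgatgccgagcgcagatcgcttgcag

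These windows lie at chr15:69452803-69452832 (plus strand) for RPLP1, chr11:809952-809981 (plus) for RPLP2, chr3:39406705-39406734 (plus) for RPSA and chr9:19380222-19380251 (minus) for RPS6. RPL10 is at chrX:154398362-154398391 (plus), RPL26 at chr17:8383179-8383208 (minus), RPL22 at chr1:6199581-6199610 (minus) and RPL22L1 at chr3:170870181-170870210 (minus). Those without the run are at chr12:56041903-56041932 (plus) for RPS26, chr4:39458908-39458937 (minus) for RPL9, chr5:172958714-172958743 (plus) for RPL26L1 and chr15:63157463-63157492 (minus) for RPS27L. At the annotated start RPS26 has G and RPL9 has A. Both windows hold runs of C and T further on, which the search did not count. A missing match therefore does not show that the mRNA lacks the motif. RPL10 has 3 annotated starts and RPL26L1 has 2, and only the start kept by the search is shown. RPL26 and its copy RPL26L1 differ here, since RPL26L1 opens with G and RPL26 with 12 letters of C and T.

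Libraries held between 1337028 and 9145399 counts, and Control 3 (1514595) and zinc protoporphyrin 1 (1337028) were much shallower than the other 10. HPPE 3 came next with 3141853 counts, and the rest had at least 6986518. All 82 members had counts in every library. HPPE 2 and HPPE 3 were the most alike pair of libraries (chi-square per degree of freedom 1.11, against 1.49 to 17.33 in the other within-group pairs); they still differed beyond sampling noise and were kept as 2 libraries. Of 12 noradrenergic neuroblastoma markers, 11 were above 3 counts in every library, while TH had 5 counts in all. Of 6 markers of mesenchymal-type neuroblastoma, 5 were above it as well, and PRRX1 had 1 count in all. The limit of 3 counts thus does not separate these types. Among 6 markers of other cells, COL1A1 had 48.1 to 57.6 CPM over the 12 libraries. The rest of that list was sparse: EPCAM had 96 counts in all libraries, GFAP 16, PTPRC 2, ALB 2 and PECAM1 1. HMOX1, which encodes the heme-degrading enzyme heme oxygenase 1, had 5.90 ± 1.57 CPM (SD, n = 3) in Control, 351 ± 17.6 CPM under HPPE, 47.0 ± 19.2 CPM under zinc protoporphyrin and 7.38 ± 0.53 CPM under tin protoporphyrin.

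The 82 genes together took 2.97%, 3.11% and 4.19% of the counts in Control libraries 1 to 3 and 3.20%, 3.82% and 3.81% in the HPPE libraries. They took 3.05%, 3.10% and 2.59% in the zinc protoporphyrin libraries and 3.79%, 2.85% and 3.15% in the tin protoporphyrin libraries. Every treated group overlapped Control, and the lowest HPPE library lay above the highest zinc protoporphyrin library. In CPM (counts scaled to a common library size, with TMM factors), the summed level was 34224 ± 5393 in Control, 36040 ± 3471 under HPPE, 29722 ± 2725 under zinc protoporphyrin and 32340 ± 4102 under tin protoporphyrin (SD, n = 3). The highest and lowest Control libraries differed 1.31-fold, which is more than the 1.21-fold ratio of HPPE to zinc protoporphyrin, the widest between group means.

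**Figure D1:**
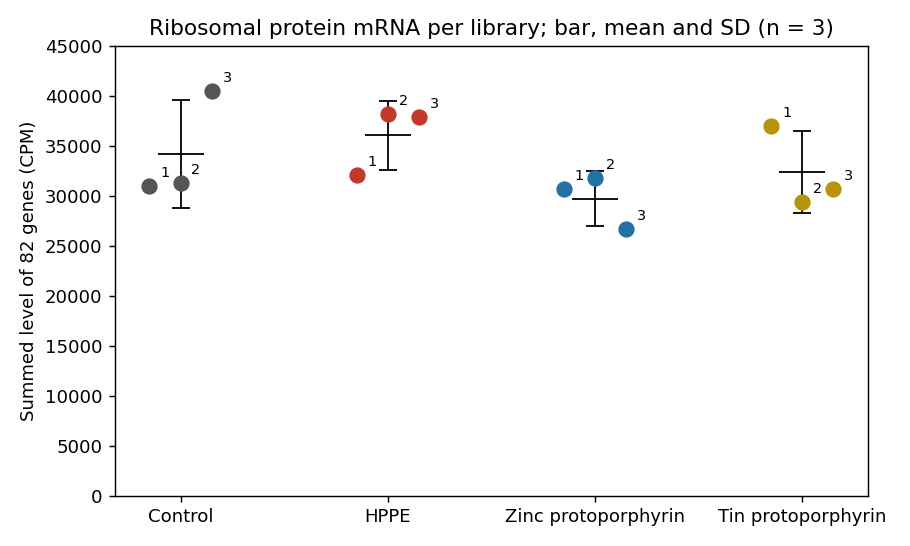
Summed level of the 82 ribosomal protein genes in CPM (vertical axis, from 0) in each of the 12 libraries by group (horizontal axis); points are libraries with their replicate number, and bars are the mean and SD of 3. Control spans 30940 to 40448 CPM, a range that covers all HPPE libraries, while zinc protoporphyrin 3 is the lowest library at 26641 CPM.

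Within a library the members moved as a block. In Control 3, 81 of the 82 genes lay above their own mean over the 12 libraries, against 4 in Control 1 and 11 in Control 2. In the HPPE libraries 27, 80 and 78 genes lay above their mean, in the zinc protoporphyrin libraries 14, 16 and 1, and in the tin protoporphyrin libraries 77, 4 and 9. Each gene was compared with the members' median deviation: 35 genes were on its side in all 12 libraries, and 71 in at least 10. The exceptions were RPL7L1, which was on that side in 2 libraries, RPS10 in 4, and RPL4 and RPL36A in 7. The subunits shifted together, with medians of 0.33 (small) and 0.29 (large) log2 units in Control 3 and of -0.32 and -0.30 in zinc protoporphyrin 3.

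**Figure D2:**
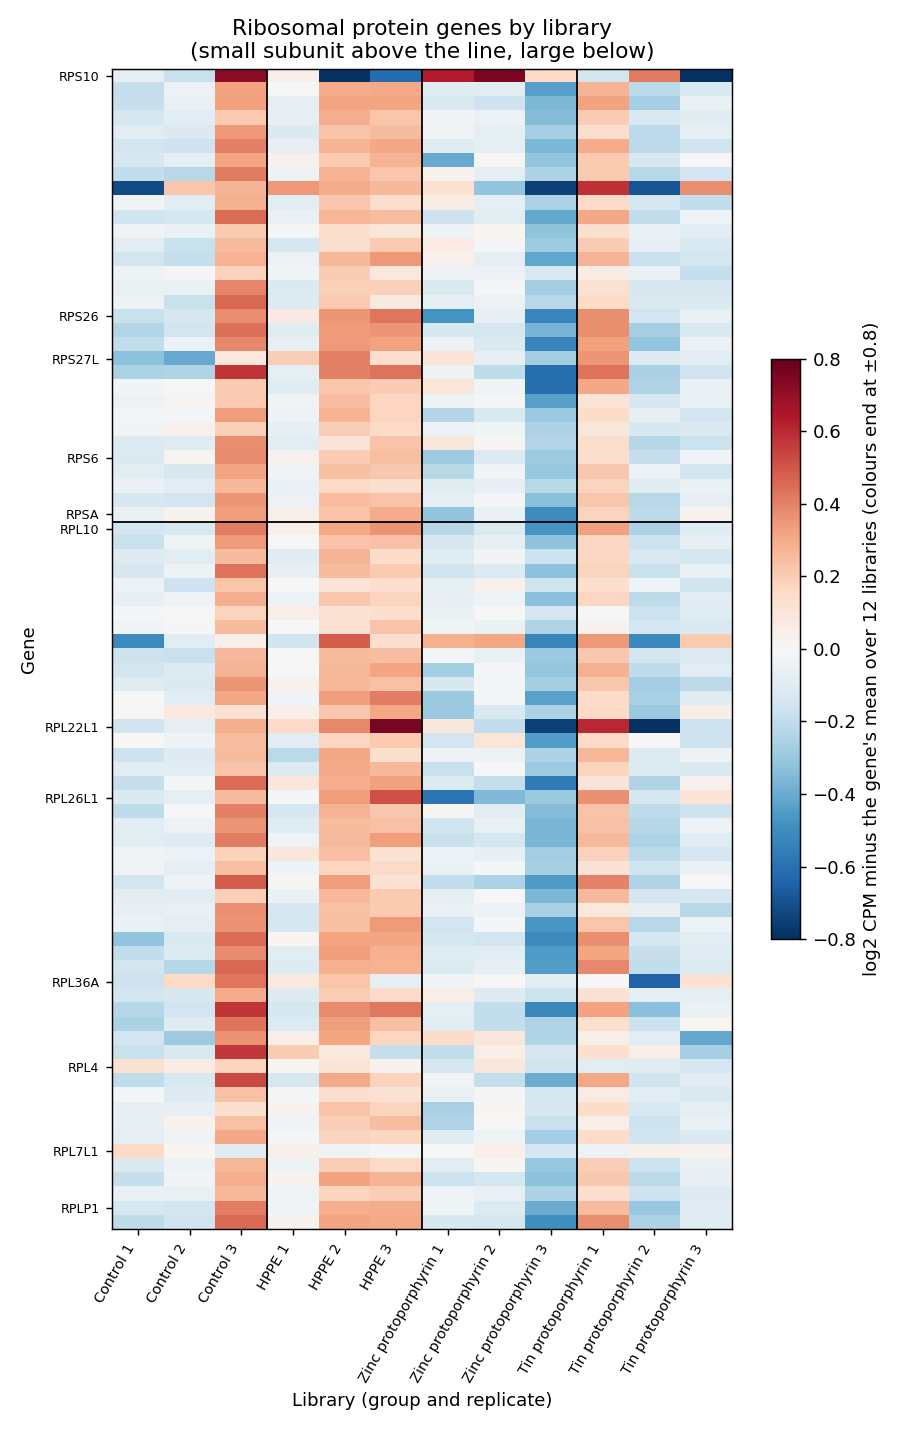
Heat map of the log2 CPM of each of the 82 genes (rows, small subunit above the horizontal line and large subunit below) minus the gene's mean over 12 libraries (columns, grouped by treatment); red is above and blue below the mean, and a few rows described in the text are named. Whole columns carry one colour: Control 3, HPPE 2, HPPE 3 and tin protoporphyrin 1 are red in at least 77 genes and zinc protoporphyrin 3 is blue in all but 1, and the few rows that break the pattern include RPL7L1 and the sparsely counted RPS10.

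The block shift ran beside a trend on transcript length that also involved other genes. For each library, the deviation of 10826 genes outside the family was set against transcript length; a negative Spearman correlation means that short transcripts were high in that library. It was 0.41, 0.18 and -0.38 in the Control libraries and -0.10, -0.43 and -0.41 in the HPPE libraries. It was 0.22, 0.34 and 0.47 in the zinc protoporphyrin libraries and -0.49, 0.46 and -0.19 in the tin protoporphyrin libraries. These are descriptions across genes of one library, without a p-value. The 4 libraries with correlations below -0.3 were the 4 in which the members' median deviation was above 0 (0.19 to 0.31). Zinc protoporphyrin 3, with the highest correlation, had the lowest median (-0.30). Most members are short, with a median transcript length of 757 bases. The mean correlation was -0.32 under HPPE and 0.34 under zinc protoporphyrin, so the trend differed between these groups in the same direction as the members did. Mitochondrial ribosomal protein genes deviated similarly (median 0.20 in Control 3 and -0.28 in zinc protoporphyrin 3).

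**Figure D3:**
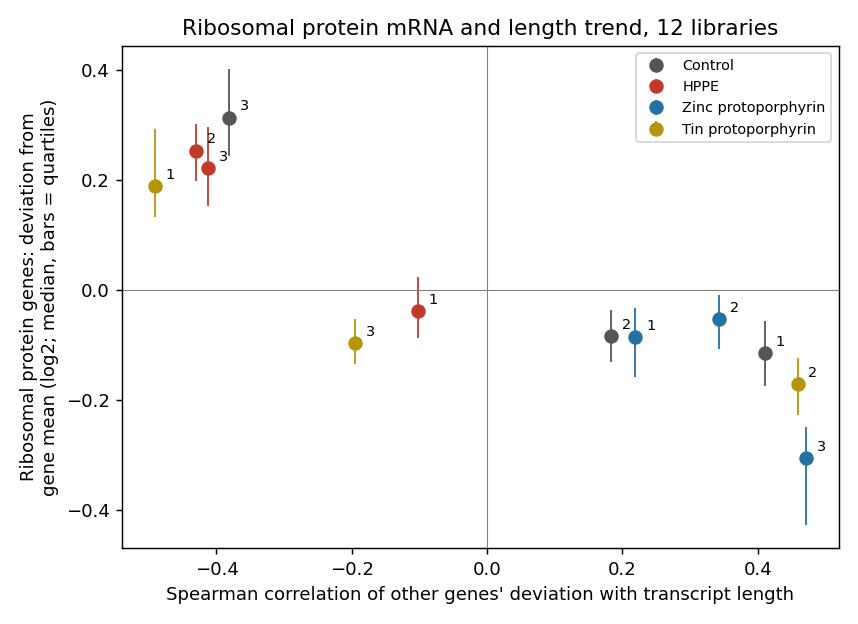
Median deviation of the 82 genes from their gene means (vertical axis, log2; bars are quartiles over genes) against the Spearman correlation of other genes' deviation with transcript length (horizontal axis) in 12 libraries, coloured by group and numbered by replicate. The libraries at the left, with correlations of -0.49 to -0.38, are the 4 with medians above 0, and zinc protoporphyrin 3 lies at the lower right.

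In the Control libraries and in all others, RPL4 had the highest count level of the family, with a mean of 1533 CPM over 12 libraries, followed by RPL13A (1143), RPS2 (1075), RPLP0 (1038) and RPL3 (961). Divided by transcript length, the order changed: RPLP1, an acidic protein of the stalk that recruits translation factors, was highest at 1545 CPM per kilobase, and RPS18 reached 1148, against a family median of 485. The lowest count levels were those of RPS10 (2.08 CPM, 154 counts in all libraries), RPL17 (4.46), RPL26L1 (10.4), RPL22L1 (10.4) and RPL39L (11.4). RPS10, RPL17 and RPL36A overlap the annotated readthrough genes RPS10-NUDT3, RPL17-C18orf32 and RPL36A-HNRNPH2 on the same strand. The 3 readthrough rows hold 0 counts, and how reads in shared exons were treated is not given in the sources used here, so the levels of these members are uncertain. Reads may also be split with the 1588 pseudogene rows of the family, which held 0.0556% to 0.0959% of the counts. The members lie on 21 chromosomes, with 12 on chromosome 19, and 28 carry snoRNA genes inside them.

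Against Control, no member passed the test in any treatment (edgeR quasi-likelihood test, adjusted p under 0.05 over 16366 genes). For HPPE this was 0 of 82, where 4.04% of all genes were called (2.57% higher and 1.47% lower). Zinc protoporphyrin gave 0 of 82 against 2.25% (1.84% and 0.415%), and tin protoporphyrin 0 of 82 against 2.28% (1.9% and 0.379%). At an unadjusted p under 0.05 there were 1, 8 and 2 members, against 2895, 3051 and 2410 of all 16366 genes. DESeq2 also called no member in the 3 comparisons. The members' median log2 difference from Control was 0.10 under HPPE, -0.20 under zinc protoporphyrin and -0.04 under tin protoporphyrin, against 0.02, -0.00 and 0.01 over all genes. Since the members shift together between libraries, 77, 4 and 20 of 82 above 0 are not independent observations. These 3 comparisons share the Control libraries. Without Control 3, the shallow library with the highest share, the medians were 0.23, -0.07 and 0.09, so the sign for tin protoporphyrin turned. With the length and GC trend removed they were -0.02, -0.07 and -0.07, so the sign for HPPE turned. That trend was fitted in each library on genes that include members, as deviations from the mean over all 12 libraries. A difference between groups that follows length or GC is therefore removed with it.

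The size of a change that these data allow is limited by the spread. The standard error of a member's log2 difference had a median of 0.14 in the comparison of HPPE with Control. The 95% interval excluded a 2-fold change in either direction for 78 of 82 members under HPPE, 79 under zinc protoporphyrin and all 82 under tin protoporphyrin. It excluded a 1.5-fold change for 70, 54 and 76 members. Among the 12 genes followed individually, the stalk base RPLP0 had 990, 989 and 1235 CPM in Control, 1008, 1166 and 1186 under HPPE, 1012, 990 and 870 under zinc protoporphyrin, and 1133, 921 and 960 under tin protoporphyrin. All its groups overlapped, and its difference from Control under HPPE was 0.07 (95% interval -0.19 to 0.32). RPLP1 and RPLP2, its partners in the stalk, had differences of 0.14 ± 0.16 and 0.18 ± 0.17 (SE) with overlapping groups.

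RPL5 and RPL11, the MDM2-binding pair, were close to Control under HPPE (0.04 ± 0.09 and 0.09 ± 0.12). RPL5 had 495, 467 and 588 CPM in Control, 496, 549 and 544 under HPPE, 481, 498 and 455 under zinc protoporphyrin and 524, 471 and 460 under tin protoporphyrin, all overlapping. MDM2 itself was not called in any comparison with Control. RPS19, a small subunit protein mutated in Diamond-Blackfan anaemia, had 472, 478 and 719 CPM in Control and 506, 635 and 627 under HPPE; Control 3 was higher than any treated library. RPL3, near the peptidyl transferase centre, and RPS27A, made as a fusion with ubiquitin, also overlapped between Control and each treatment.

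Zinc protoporphyrin libraries lay wholly below Control for 8 of 82 members (9.76%), a share near the 10.4% of all genes, and wholly above for none (11.6%). RPSA, a small subunit protein also known as the laminin receptor, had 606, 644 and 798 CPM in Control and 507, 609 and 446 under zinc protoporphyrin. Its difference was -0.38 ± 0.13 with an adjusted p of 0.13, the smallest among the members in that comparison, and zinc protoporphyrin 2 lay above Control 1. RPS6, the phosphorylation target of S6 kinase, had 832, 914 and 1166 CPM in Control and 736, 835 and 734 under zinc protoporphyrin, a difference of -0.33 ± 0.12 with an adjusted p of 0.15. Here too zinc protoporphyrin 2 lay above Control 1, so neither RPSA nor RPS6 is among the 8. RPL22 is among them, with 93.4, 98.7 and 101 CPM in Control and 76.0, 85.8 and 78.3 CPM under zinc protoporphyrin. Under HPPE, 1 of 82 members lay wholly above Control (11.9% of all genes) and 0 wholly below (9.44%). Under tin protoporphyrin, 0 lay wholly above (10.3%) and 1 wholly below (7.6%): RPL4, with 1662, 1601 and 1725 CPM in Control and 1443, 1427 and 1394 CPM. That difference was -0.23 ± 0.09 with an adjusted p of 0.22.

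RPS27L, the copy of RPS27 that is known as a p53 target, was the member that lay above Control under HPPE. It had 26.9, 25.5 and 35.7 CPM in Control and 38.6, 44.5 and 37.0 CPM under HPPE, so the groups did not overlap, although Control 3 came within 2 CPM of HPPE 3. It had 36.1, 32.2 and 27.8 CPM under zinc protoporphyrin and 43.0, 31.3 and 31.7 CPM under tin protoporphyrin, which overlapped Control. The difference of HPPE from Control was 0.54 ± 0.15 (1.45-fold), with an adjusted p of 0.0508 that missed the threshold. It passed in 7 of 18 alternative analyses and missed it in 11, with adjusted p from 7.5e-05 to 0.28, and the log2 difference ran from 0.38 to 0.63. Without Control 3 its adjusted p was 0.0168, and without Control 2 it was 0.28. Its main gene RPS27 had 273, 289 and 436 CPM in Control and 301, 406 and 409 under HPPE (0.18 ± 0.18), with overlapping groups.

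The other close copies were followed beside their main genes. RPL7L1, which has the longest transcripts of the family, kept 187 to 222 CPM in Control, 195 to 206 under HPPE, 181 to 205 under zinc protoporphyrin and 194 to 206 under tin protoporphyrin. Its range over the 12 libraries was 0.30 log2 units, and Control 3, high for nearly all members, was its lowest Control library. RPL7 itself ran from 378 to 464 CPM in Control and from 385 to 468 CPM under HPPE. RPL39L had 9.92, 10.3 and 16.6 CPM in Control and 12.9, 11.9 and 9.82 under HPPE. RPL39 was at a like level (11.6, 10.6 and 16.6 CPM in Control), so CPM did not separate this copy from its main gene. Divided by transcript length, RPL39 had 32.6 and RPL39L 15.2 CPM per kilobase over all libraries. RPL39 has 19 pseudogene rows and RPL39L has 0, so the comparison of their levels is uncertain. RPL22L1 was counted at 10.4 CPM, against 94.2 CPM for RPL22, and RPL26L1 at 10.4 CPM against 41.4 CPM for RPL26. The same limit holds here, since RPL22 and RPL26 have 22 and 17 pseudogene rows and their copies 0.

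**Figure D4:**
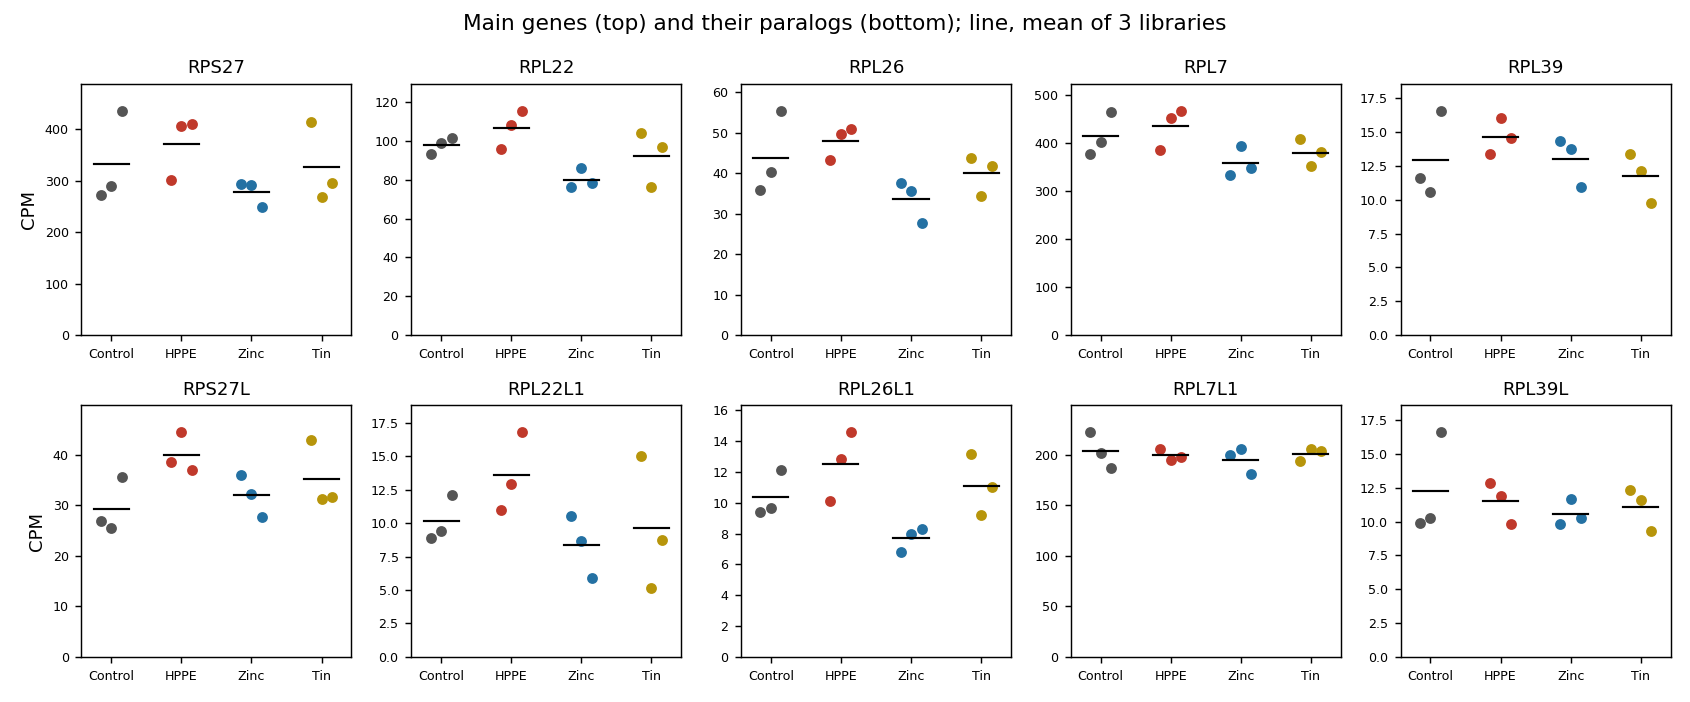
Levels in CPM (vertical axes, each from 0) of 5 main genes (upper row) and their close copies (lower row) in the 4 groups; points are libraries and lines the means of 3. RPL7L1 stays between 181 and 222 CPM in all groups, RPS27L is at 37.0 CPM or more in every HPPE library and at 35.7 CPM or less in every Control library, and RPL22 and RPL26L1 under HPPE lie above all zinc protoporphyrin libraries.

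HPPE and zinc protoporphyrin, given at the same concentration for the same time, differed in 10 of the 82 members, all higher under HPPE. In this comparison 12.7% of all genes were called, 6.44% higher and 6.26% lower, and 10 of 82 is 12.2%, so the share called was near that of all genes. The direction was one-sided: 81 members were above 0, with a median log2 difference of 0.30 against 0.01 over all genes. At an unadjusted p under 0.05 there were 49 of 82, against 5271 of all 16366 genes. HPPE libraries lay wholly above zinc protoporphyrin for 35 members (19% of all genes) and wholly below for 1 (17.7%), which was RPS10 with its 154 counts. The length trend of other genes differed between the same groups, with the mean correlations of -0.32 and 0.34 given above. HPPE had no library as shallow as zinc protoporphyrin 1, but HPPE 3, at 3141853 counts, was shallower than the other HPPE libraries.

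Of the small subunit, the called members were RPS26, RPSA, RPS6 and RPS3A. RPS26, at the mRNA exit, had 107, 130 and 137 CPM under HPPE and 73.0, 97.6 and 71.1 CPM under zinc protoporphyrin. All HPPE libraries were the higher, and the difference was 0.60 ± 0.16 with an adjusted p of 0.0289. RPSA had 652, 738 and 774 CPM under HPPE, against the 446 to 609 CPM given above, a difference of 0.47 ± 0.13 (adjusted p 0.031). RPS6 had 923, 1034 and 1064 CPM against 734 to 835 CPM (0.39 ± 0.12, adjusted p 0.0415). RPS3A had 260, 325 and 301 CPM against 228, 246 and 218 CPM (0.36 ± 0.11, adjusted p 0.0453). The groups did not overlap for any of these 4.

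Of the large subunit, the called members were RPL26L1, RPL26, RPL10, RPL21, RPL9 and RPL22. RPL26L1 had 10.1, 12.8 and 14.6 CPM under HPPE and 6.78, 7.98 and 8.30 CPM under zinc protoporphyrin (0.61 ± 0.19, adjusted p 0.0426). Its main gene RPL26, which lies by the tunnel exit, had 43.4, 49.7 and 51.0 CPM against 37.6, 35.7 and 27.7 CPM (0.55 ± 0.15, adjusted p 0.0277). Both copies thus differed in the same direction and without overlap, although their start windows differ as shown above. RPL10, a protein of the subunit interface that joins late in assembly, had 503, 606 and 627 CPM against 419, 452 and 352 CPM (0.51 ± 0.16, adjusted p 0.0478).

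RPL21 had 142, 183 and 192 CPM against 118, 144 and 108 CPM (0.47 ± 0.14, adjusted p 0.0389), the one called member whose groups overlapped. RPL9 had 289, 355 and 344 CPM against 252, 257 and 227 CPM (0.43 ± 0.13, adjusted p 0.0382). RPL22 had 96.0, 108 and 116 CPM against 76.0, 85.8 and 78.3 CPM (0.39 ± 0.11, adjusted p 0.0303). Its copy RPL22L1 had 11, 12.9 and 16.8 CPM against 10.5, 8.64 and 5.89 CPM, a difference of 0.78 ± 0.31 that did not pass (adjusted p 0.0983). RPS10 had 2.00, 1.05 and 1.27 CPM against 3.01, 3.27 and 2.17 CPM, which at so few counts did not pass either (-0.89 ± 0.38, adjusted p 0.12).

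The number of calls between HPPE and zinc protoporphyrin changed with single libraries, while every called member kept its sign. With HPPE 2, HPPE 3 or zinc protoporphyrin 3 left out, 0 members were called, and with HPPE 2 and 3 summed as 1 library there were 0, while without HPPE 1 there were 14. Without zinc protoporphyrin 1, RPL26 alone was called, and without zinc protoporphyrin 2 there were 6. Over the 6 libraries left out in turn, the members' median ran from 0.22 to 0.40. RPS26 ran from 0.48 (without zinc protoporphyrin 3) to 0.79 and RPSA from 0.36 to 0.60, and in the 3 of these analyses that called none, their adjusted p was 0.10 to 0.20 and 0.11 to 0.20. After the trends on length and GC content had been taken out of every library, the median difference was 0.05 and RPS26 and RPSA remained called, at 0.37 (adjusted p 0.0428) and 0.24 (adjusted p 0.025). This removal also takes out any treatment difference that follows length or GC, so the fall does not tell the 2 apart.

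**Figure D5:**
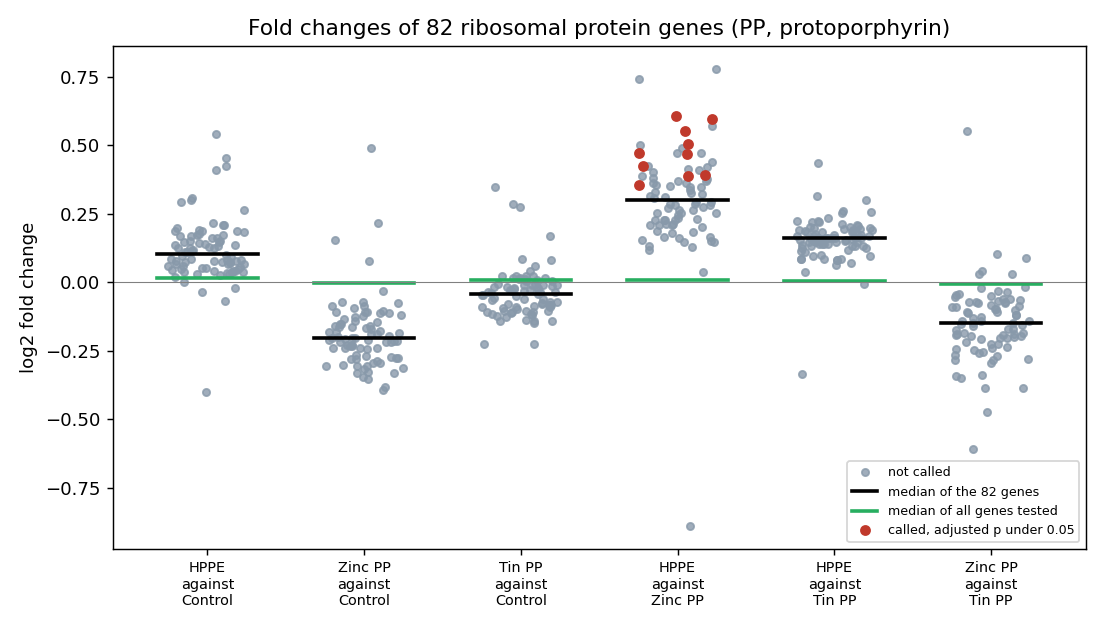
Log2 fold change of each of the 82 genes (vertical axis) in the 6 comparisons (horizontal axis, first group against second); red points are called at an adjusted p under 0.05, black lines are the family's median and green lines the median of all genes tested. Called genes appear in the comparison of HPPE with zinc protoporphyrin only, where the median is 0.30. In each comparison most of the family's points, but not all, lie on one side of the green line.

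In this comparison, members with the C and T run at the annotated start had a median of 0.34 (47 genes, 7 called). Members without it had 0.31 (19 genes, 3 called), and the search does not show that these 19 lack the motif. Other genes with such a run had a median of 0.06 (776 genes, 56 called higher and 41 lower). Hosts of snoRNA genes had a median of 0.26 (28 genes) and the other members 0.32 (54 genes). The shorter and longer members, split at the median transcript length, had medians of 0.35 and 0.27, with 3 and 7 genes called. Across the 82 members, the Spearman correlation of the difference with transcript length was -0.21 (genes of the same libraries, no p given). These values describe the members and were not tested.

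Between HPPE and tin protoporphyrin, 0 of 82 members were called, where 1.45% of all genes were (0.745% higher and 0.709% lower). The median difference was 0.16, 80 members were above 0, and 2 had an unadjusted p under 0.05, as had 2141 of all 16366 genes. HPPE lay wholly above tin protoporphyrin for RPL14, RPL39 and RPL4 (3 of 82; 9.81% of all genes) and wholly below for none (10.1%). DESeq2 called none here either. The 95% interval excluded a 1.5-fold difference for 71 members.

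The comparison of the metals, zinc against tin, gave 0 of 82 members called, where 0.00611% of all genes (1 gene, higher under zinc protoporphyrin) were called. The members' median was -0.15, with 76 of 82 below 0 and 4 at an unadjusted p under 0.05 (2176 of all 16366 genes). With the length and GC trend removed the median was 0.01, so its sign turned. RPL26L1 was wholly lower under zinc protoporphyrin (1 of 82; 6.38% of all genes) and 0 were wholly higher (6.56%). It stood at 6.78 to 8.30 against 9.22 to 13.1 CPM, a difference of -0.47 ± 0.18 with an adjusted p of 0.35. Its unadjusted 95% interval ran from -0.89 to -0.06, but the gene was named because its groups did not overlap. The missed threshold shows neither that the metals act alike nor that they differ. For 61 members the interval excluded a 1.5-fold difference, and for 79 a 2-fold difference.

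Genes that work with the ribosomal proteins were read from lists of known components. Ribosomal proteins that the symbol rule misses include FAU, RACK1 and RPL36AL, and all 3 lay above 0 in the comparison of HPPE with zinc protoporphyrin. FAU and RACK1 were not called in any comparison with Control, and RPL36AL, a copy of RPL36A, was called between HPPE and zinc protoporphyrin. RPL36AL had 31.6, 43.8 and 44.6 CPM under HPPE and 24.8, 26.95 and 21.8 CPM under zinc protoporphyrin (0.70 ± 0.20, adjusted p 0.0315). RACK1, the scaffold protein of the small subunit, was flat at 0.01 ± 0.09 in that comparison. Of 77 mitochondrial ribosomal protein genes tested, 15 were called, all higher under HPPE than under zinc protoporphyrin, with a median of 0.38. Of all genes, 6.44% were called higher there and 6.26% lower. Against Control 0 of the 77 were called in any treatment, where 4.04%, 2.25% and 2.28% of all genes were. MRPL55 (0.93), MRPL23 (0.81) and MRPL16 (0.77) had the largest log2 differences.

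Among 32 other mRNAs with a known TOP motif or snoRNA host role, 6 were higher and 1 lower under HPPE than under zinc protoporphyrin. Of all genes, 6.44% and 6.26% were. The snoRNA host RNAs SNHG12 (1.05), SNHG1 (1.03) and GAS5 (0.79) led, and the poly(A)-binding protein gene PABPC1 was lower (-0.41 ± 0.12, adjusted p 0.0416). GAS5 had 150, 186 and 198 CPM under HPPE and 109, 111 and 90.7 CPM under zinc protoporphyrin, but its Control libraries ran from 106 to 209 CPM. CNBP, a TOP mRNA that encodes a zinc-finger RNA-binding protein, was the one gene of the list called against Control. It had 179, 191 and 219 CPM in Control and 234, 262 and 268 CPM under HPPE (0.39 ± 0.10, adjusted p 0.0402).

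Of 17 regulators of TOP mRNAs and mTORC1, 2 were higher and 1 lower under HPPE than under zinc protoporphyrin (6.44% and 6.26% of all genes). Against Control 1, CNBP, was called. MTOR was the lower gene (-0.36 ± 0.10, adjusted p 0.0333), and the higher were RHEB, which activates mTORC1, at 0.57 ± 0.17 (adjusted p 0.0369), and CNBP, which is on both lists, at 0.52. LARP1 was not called in any comparison. Of 104 ribosome biogenesis factors, 12 were higher and 3 lower, beside the same shares of all genes. The box C/D and H/ACA snoRNP proteins NOP56 (0.57) and NOP10 (0.80) and the processome protein UTP11 (0.60) were among the higher. The lower were MDN1 (-0.64), a very large AAA ATPase, POLR1A (-0.44), the largest subunit of RNA polymerase I, and RRP1B (-0.28). Against Control, 0 of the 104 were called in any treatment, where 4.04%, 2.25% and 2.28% of all genes were. MYC, a transcription factor that drives ribosome production, had 66.1, 75.5 and 75.3 CPM in Control and 51.8, 58.7 and 56.0 CPM under HPPE, a difference of -0.37 ± 0.11 that missed the threshold (adjusted p 0.0741).

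Initiation factors gave 4 higher and 1 lower of 39 between HPPE and zinc protoporphyrin. EIF4A2 (0.68), EIF1 (0.50) and EIF2B1 (0.39) led the higher genes, and PABPC1 (-0.41) was the lower gene here as well. None of the 9 elongation factors tested was called. The dedicated chaperones of ribosomal proteins gave 1 of 9, AAMP (0.47). In these lists, apart from CNBP, the calls fell on the comparison in which 12.7% of all genes were called (6.44% higher and 6.26% lower). No share was tested against these.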

How the data were processed

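The authors deposited a table of whole-number read counts per Ensembl gene, not normalized. Per the submitters' processing notes, fastp 0.21.1, STAR 2.7.7a and featureCounts were used with GRCh38; the annotation, the use of strand and the treatment of reads with several matches are not given in the sources used here. All 12 libraries were used, and no column fell outside them. Identifiers were matched to symbols for 60481 of 60710 rows. The members, the gene lists and the tests were chosen with earlier results of these data known. Genes were named by rule: 12 members of known roles, the close copies, the called members with the largest differences, the 5 highest and lowest members, and the 3 largest called genes of each list; HMOX1 and further called genes were added after their values were seen. Certain genes are not reported by name here.

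Genes were filtered with filterByExpr, which left 16366 genes with 99.6% of the counts. A single model, holding 1 mean for each group, covered the 12 libraries in edgeR 4.0.16 (R 4.3.3; TMM scaling, factors 0.964 to 1.04; quasi-likelihood F test, two-sided, Benjamini-Hochberg adjustment over all genes tested, threshold 0.05) in 6 comparisons. The fit was run on simulated counts with known changes, drawn independently for each gene and library. They lack the shift that members share within a library, so the run does not bear on the stability of the calls. Errors are SE for log2 differences and SD for CPM. The count intervals and the floor of 3 counts cover counting error only. Transcript length is the median over protein-coding transcripts of GENCODE 29. Alternatives were DESeq2 1.42.0, other filters and scalings, the compared groups alone, a library axis as a covariate (the leading principal component of deviations from the group means), removal of length and GC trends (lowess, span 0.3), the replicate block and each library left out. Others, HPPE 2 and 3 summed and both shallow libraries left out, were chosen after seeing the data.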

Additional observations from a re-analysis of the deposited data

How the results depend on the processing

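With DESeq2, RLE size factors, unscaled library sizes and TMM factors computed without the members, the number of members called stayed within 1.5 times its value in all 6 comparisons. Between HPPE and zinc protoporphyrin, 10 members became 16 without both shallow libraries, 0 with HPPE 2 and 3 summed, 2 with the length and GC trend removed, 73 with the library axis as a covariate, 51 without a filter beyond 1 count and 55 with the compared groups alone; leaving out single libraries gave 0 to 14. None of the 10 changed sign under any alternative. The members' median of 0.30 became 0.05 with the trend removed. For HPPE against Control, 0 became 1 with a filter of 1 CPM, without a filter, with the compared groups alone, with the trend removed and without both shallow libraries, RPS27L each time, and 16 with the library axis; single libraries gave 0 to 1. For zinc protoporphyrin against Control, 0 became 7 without a filter, 1 (RPSA) with the trend removed and 51 with the library axis; for tin protoporphyrin, 1 (RPL4) and 5 in the last 2; leaving out single libraries gave 0 to 0 in both. HPPE against tin protoporphyrin gave 48 with the library axis and 0 to 1 over single libraries. Zinc against tin protoporphyrin gave 2 without a filter, 25 with the library axis and 0 to 3 over single libraries. The library axis was computed from the spread within these same groups, so calls gained with it are not independent support. The length and GC trends were fitted across the groups on genes that include members, so values with them removed are not an independent correction. The cause of the other changes was not tested. With the trend removed, the medians of HPPE against Control and of zinc against tin protoporphyrin were -0.02 and 0.01, the opposite sign of 0.10 and -0.15, with no p attached.

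With the replicate number as a block, the 10 members between HPPE and zinc protoporphyrin became 0; the other counts stayed at 0. The labels do not say whether equal numbers mark samples that belong together. Of 18 same-numbered pairs, 5 had deviations with a correlation above 0.1, and the values ran from -0.68 to 0.52. The library axis held 52.5% of the variance of such deviations in genes outside the family, so these correlations cannot settle it.

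Members under 1000 counts (8 of 82) carry standard errors of up to 0.41 log2 units against Control.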
